A study of Mus musculus with 2 samples.

Results

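Intergenic DNase I hypersensitive sites (DHS) that lie at most 50 kb from a transcription start site (TSS) of a protein-coding gene were examined in splenic B cells of the mouse. They were chosen by position alone. On chromosomes 1 to 19 of mm9, a DHS was a member if it touched no window from 5 kb upstream to 2 kb downstream of the TSS of any GENCODE M1 transcript, touched no gene body, and had its centre within that distance. The rule found 8165 members of 46610 DHS on these chromosomes (17.5%, 95% Wilson interval 17.2 to 17.9), in a deposited list of 47542 DHS in all. They made up 67.7% of the 12062 DHS that lay outside promoter windows and gene bodies.

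The series holds 1 DNaseI library and 1 input library. Both came from B cells of the spleen of C57/Bl6 mice of genotype Trp53+/+, aged 8 weeks, whose treatment is given as mock, and the study describes such animals as not irradiated. The cells were taken with beads against B220, an isoform of CD45 on the surface of B cells. Whether cells of several animals were pooled is not given in the sources used here. Only the DNaseI library has a peak list here. With 1 library and no replicates no test was possible, the depth behind the peaks is unknown, and every interval below is at the 95% level and covers counting error only. A site without a DHS is a site where none was called.

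DNase I cuts DNA that is free of nucleosomes more readily than DNA wrapped in them, and regions where its cuts gather mark promoters, enhancers, insulators and other bound elements. Outside promoters, lineage factors such as PU.1, EBF1 and the E-box protein E2A hold enhancers open in B cells. CTCF, a zinc finger protein that anchors chromatin loops with cohesin, binds many open sites that are not enhancers. Genes for tRNAs are a further kind of element between protein-coding genes, transcribed by RNA polymerase III from the A box and the B box, promoter elements inside the gene.

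The cell type given by the labels was compared with the DHS at marker genes. All 6 B cell markers looked at, Cd22, Cd79a, Cd79b, Ms4a1 and Pax5 among them, had a DHS in a promoter window, and 5 of the 6, Ms4a1 being the exception, were the nearest protein-coding gene of at least 1 intergenic member. Of 6 T cell markers, 1 had a promoter DHS (Lck) and 2 had a member (Cd3e and Cd4). Of 6 myeloid markers, 3 had a promoter DHS (Cd14, Csf3r and Itgam) and 4 had a member (Csf1r, Csf3r, Itgam and Lyz2). Of 6 markers of red cells and megakaryocytes, 2 had a promoter DHS and 1 had a member. Over all protein-coding genes, 57.9% had a promoter DHS and 18.2% were the nearest gene of a member. With 6 markers in each set these counts are a description only. The part of other spleen cells in the members near such genes was not tested.

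The sequences that follow show the words on which the later comparisons turn. Each is the plus strand of mm9 (NCBI build 37), 5′ to 3′, and the capitals mark a match to the word on either strand. The first 5 belong to the highest-scoring member, among the chromosomes used for display, that holds the named word in its central 300 bp. The next is the centre of the highest-scoring member nearest to a gene of the list of B cell transcription factors, and the last spans the gap between a pair of neighbouring members. A match is a description of letters and not evidence of a bound site.
CTCF word, member near Lag3, chr6:124853723-124853824: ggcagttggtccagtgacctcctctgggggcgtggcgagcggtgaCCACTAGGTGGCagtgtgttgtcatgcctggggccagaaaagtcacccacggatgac
PU.1 word, member near Rnf19b, chr4:128710073-128710170: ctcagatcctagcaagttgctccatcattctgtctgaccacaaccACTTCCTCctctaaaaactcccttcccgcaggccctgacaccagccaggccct
EICE word, member near Hfe2, chr3:96304898-96304996: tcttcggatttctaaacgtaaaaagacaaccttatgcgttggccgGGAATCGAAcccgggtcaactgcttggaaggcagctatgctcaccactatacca
EBF1 word, member near Btg2, chr1:135990068-135990166: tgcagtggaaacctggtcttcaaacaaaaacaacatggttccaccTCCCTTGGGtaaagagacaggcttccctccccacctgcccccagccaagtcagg
Octamer, member near Cecr5, chr6:120529675-120529772: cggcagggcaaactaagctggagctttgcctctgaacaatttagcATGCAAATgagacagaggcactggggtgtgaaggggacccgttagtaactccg
E-box, member near Bach2, chr4:32306772-32306971: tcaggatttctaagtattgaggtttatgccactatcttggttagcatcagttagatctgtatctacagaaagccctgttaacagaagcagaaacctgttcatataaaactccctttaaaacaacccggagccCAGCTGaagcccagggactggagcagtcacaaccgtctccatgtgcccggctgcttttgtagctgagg
CTCF word between a pair of members near Rfc4, chr16:23135616-23135792: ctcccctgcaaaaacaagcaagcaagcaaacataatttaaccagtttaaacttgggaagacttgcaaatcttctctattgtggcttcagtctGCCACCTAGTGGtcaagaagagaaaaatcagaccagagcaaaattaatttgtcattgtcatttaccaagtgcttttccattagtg

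The members were weaker and narrower than promoter DHS. The score that the authors' peak caller gave each DHS had a median of 26.6 in the members (quartiles 16.6 and 46.8, range 5.05 to 512). It was 23.2 in intergenic DHS beyond 50 kb, 22.5 in intronic DHS and 54.0 in promoter DHS. The median width was 638 bp in the members (quartiles 407 and 1038, range 334 to 5430), against 628, 552 and 948 bp in the other classes in the same order. Of the members, 40.5% (39.4 to 41.5) reached the median score of the whole list, 32.65, against 34.6% (33.1 to 36.1) of intergenic DHS beyond 50 kb, so that these intervals did not overlap. At the limit of the class the 3 outermost members, near Mettl21d, Smndc1 and Sik1, had scores of 10.3, 24.4 and 15.6 at 49999, 49983 and 49964 bp. The 3 DHS just outside it, near Map3k8, Srsf5 and Arf2, had scores of 17.9, 52.6 and 13.7 at 50028, 50036 and 50058 bp.

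Sequence that could hold a member, called eligible sequence here, was counted in tiles of 300 bp that lay outside promoter windows and gene bodies and within 50 kb of a protein-coding TSS. It came to 396.9 Mb, 16.1% of chromosomes 1 to 19, with 20.6 members per Mb (exact Poisson interval 20.1 to 21.0). The members were less rich in GC than promoter DHS and richer than their surroundings. The median GC content of the central 300 bp was 48.0% in members, 54.3% in promoter DHS and 42.7% in 1292467 eligible tiles without a DHS. CpG-rich centres, defined by 55% GC or more and by a CpG count of 0.6 or more of that predicted from base frequencies, were found in 252 members (3.09%, 2.73 to 3.48), in 33.9% of promoter DHS and in 0.180% of the tiles. These 252 members had a median score of 59.5 and a median width of 1123 bp, against 26.0 and 620 bp in the rest.

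Members stood close to other DHS. Another DHS lay less than 10 kb away for 6412 members (78.5%, 77.6 to 79.4), compared with 70.6% (69.1 to 72.0) of intergenic DHS beyond 50 kb, 78.3% (77.5 to 79.1) of intronic DHS and 80.7% (80.1 to 81.2) of promoter DHS. For 5238 of these 6412 members (81.7%) the nearest DHS was itself a member, and for 882 (13.8%) it was a promoter DHS. The gap was under 200 bp for 2166 members (26.5%, 25.6 to 27.5), against 23.6%, 27.5% and 28.6% of these classes in the same order.

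Density was highest between 5 and 15 kb from the TSS and fell beyond. Nearer than 5 kb, where eligible sequence lies downstream only, it was 18.2 per Mb (15.4 to 21.4). Members numbered 24.0 per Mb (22.9 to 25.1) between 5 and 10 kb, 20.9 (19.9 to 21.9) between 20 and 30 kb and 14.8 (13.8 to 15.8) between 40 and 50 kb. The ratio of the density at 5 to 10 kb to that at 40 to 50 kb was 1.63 (1.49 to 1.77). Between 50 and 100 kb, outside the class, the density was 10.98 per Mb (10.5 to 11.5). The median distance was 18096 bp, with quartiles at 10533 and 29059 bp and a least distance of 2278 bp. The 148 members nearer than 5 kb all lay downstream, where the promoter window ends 2 kb from the TSS.

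Upstream and downstream sequence differed in shape, not in sum. Upstream of the nearest TSS lay 5380 members (65.9%) and downstream 2785, but eligible sequence was as uneven, so that the densities were 20.7 (20.1 to 21.2) and 20.4 per Mb (19.7 to 21.2), a ratio of 1.01 (0.967 to 1.06). Close to the TSS the upstream side was denser, with 24.8 per Mb (23.5 to 26.2) against 21.6 (19.6 to 23.9) between 5 and 10 kb, a ratio of 1.15 (1.02 to 1.29). Between 40 and 50 kb the downstream side was denser, with 16.5 per Mb (14.9 to 18.4) against 13.6 (12.4 to 14.9), a ratio of upstream to downstream of 0.821 (0.713 to 0.946). These intervals treat members as independent. Many members stood close together, so that the intervals are too narrow, and that of the ratio of 1.15 only just excludes 1. The median score was 26.6 on both sides.

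**Figure D1:**
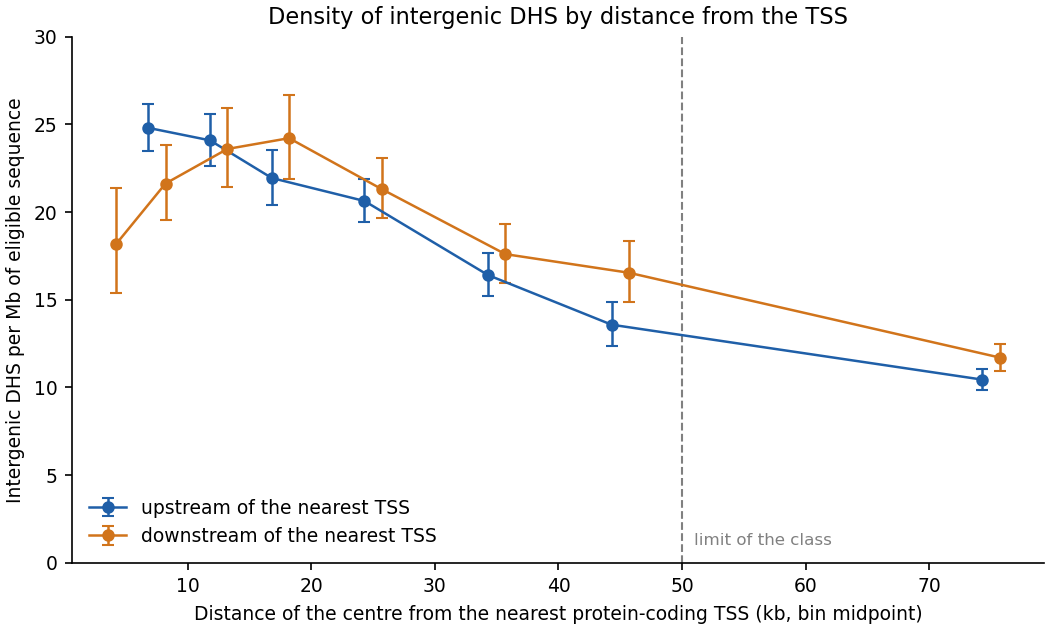
Intergenic DHS per Mb of eligible sequence against the distance of the DHS centre from the nearest protein-coding TSS, by bin, upstream and downstream of that TSS; bars are exact 95% Poisson intervals and the dashed line is the limit of the class. The upstream density falls from 24.8 to 13.6 per Mb, while the downstream density is highest, 24.2 per Mb, between 15 and 20 kb and reaches 16.5 per Mb at 40 to 50 kb.

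The members gathered around genes whose own promoter held a DHS. Of 21418 protein-coding genes, 12403 (57.9%) had a DHS in a promoter window. Eligible sequence nearest to these genes held 6414 members, 37.1 per Mb (36.2 to 38.0), and that nearest to the other 9015 genes held 1751, 7.82 per Mb (7.46 to 8.20). The ratio was 4.74 (4.494 to 4.999), with 5.34 (4.74 to 6.03) between 5 and 10 kb from the TSS and 4.44 (3.98 to 4.96) between 30 and 50 kb. The scores hardly differed, with medians of 26.9 and 25.3. Among chromosomes the density ran from 14.7 per Mb on chromosome 14 to 33.1 per Mb on chromosome 11, with a median of 20.2.

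Of the 21418 protein-coding genes, 3907 (18.2%) were the nearest gene of at least 1 member. A single member was found at 2025 genes and 5 or more at 325 genes, and these 325 held 2151 members (26.3%). Nearest gene is used here as an address, since the files do not show which gene a DHS acts on. The share of genes with a member was 23.7% (22.9 to 24.4) among genes with a promoter DHS and 10.8% (10.2 to 11.5) among the others.

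The genes with the most members included 3 receptors that guide lymphocyte migration. Cxcr4 (ENSMUSG00000045382.6), the receptor for the chemokine CXCL12 that holds cells in bone marrow, was first with 16 members within chr1:130444442-130520894, of which 13 were upstream, with scores from 11.1 to 235. Ccr7 (ENSMUSG00000037944.8), the receptor that leads lymphocytes into T cell zones, had 15 members within chr11:98985030-99051285, with scores from 6.90 to 144 and the highest median score of these genes, 46.4. S1pr1 (ENSMUSG00000045092.6), the sphingosine 1-phosphate receptor by which lymphocytes leave lymphoid organs, had 14 members within chr3:115372111-115461892, of which 10 were downstream. All these genes had a promoter DHS as well. The eligible sequence nearest to them was 90.9, 54.6 and 92.1 kb long and held 176, 275 and 152 members per Mb.

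Lbh had 15 members, Chst3, which encodes a sulfotransferase for chondroitin, had 14, and Etv3, an ETS family repressor, had 12. The strongest member of this group lay at Chst3, with a score of 338. Iglc2 (ENSMUSG00000076937.2), a constant gene of the immunoglobulin lambda light chain, had 12 members within chr16:19151119-19238163, 6 on each side, with scores from 9.55 to 173. In the most repetitive of these 12, repeated 31-base words made up 41.9%, so that reads of near-identical copies may be mixed there. The next 3 by name, 1700067P10Rik, Atp6v1g3, which encodes a subunit of the vacuolar proton pump, and Azin1, the antizyme inhibitor, had 11 each and were 3 of 12 genes with that count. Of these 10 genes only 1700067P10Rik had no promoter DHS.

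**Figure D2:**
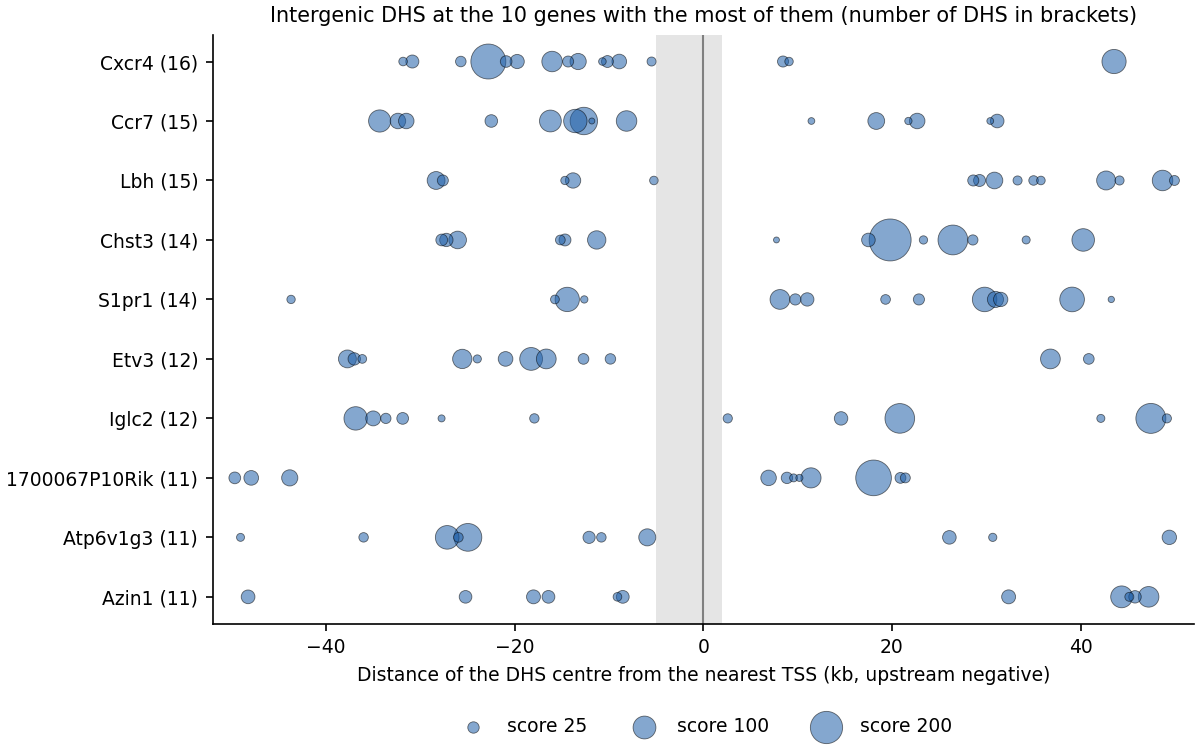
Each circle is an intergenic DHS at 1 of the 10 genes with the most of them, placed by the distance of its centre from the nearest TSS of that gene (kb, upstream negative), with circle area in proportion to the score; the grey band is the promoter window. Members lie on both sides of all 10 genes, and their scores within a gene spread widely, as from 6.77 to 338 at Chst3.

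Genes of B cells were the address of members more often than protein-coding genes as a whole. Of 19 genes in a list of B cell transcription factors, 13 (68.4%, 46.0 to 84.6) had at least 1 member. So did 13 of 20 genes of the B cell surface and of antigen presentation (65.0%, 43.3 to 81.9) and 12 of 17 genes of B cell receptor signalling (70.6%, 46.9 to 86.7). Over the 3 lists together 38 of 56 genes (67.9%, 54.8 to 78.6) had a member, against the 18.2% of all genes, and the density was 107 members per Mb (89.0 to 128) against 20.6. All 56 had a promoter DHS, and the density at all genes with one was 37.1 per Mb. The intervals of the 3 lists overlapped one another.

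Among the transcription factors, Bach2, a repressor that keeps B cells from becoming plasma cells, had 6 members. The strongest, with a score of 135, lay 18908 bp upstream at chr4:32306122-32307621 and is the one whose centre is printed above. Ets1, the founding member of the ETS family, had 9 members with a highest score of 129. Tcf3, which encodes E2A, had 2 with a highest score of 86.7, and Irf4, a factor of activated and plasma cells, had 10 with a highest score of 84.0. On the surface list Cd22, an inhibitory coreceptor, had a member with a score of 161 lying 7191 bp upstream at chr7:31671751-31673353. The receptors of the survival factor BAFF and its relative APRIL, Tnfrsf13c and Tnfrsf13b, had highest scores of 136 and 109, and Fcrla, an Fc receptor-like protein of B cells, had 78.0. In the signalling list the strongest member lay 29349 bp upstream of Lyn, a Src family kinase, at chr4:3573788-3578039, with a score of 269.73 that was above 99.4% of the members. Plcg2, the phospholipase downstream of the receptor, followed with 134, Cd180, a surface protein related to the Toll-like receptors, with 123, and Pik3cd, a catalytic subunit of PI3 kinase, with 70.4.

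Genes of migration and of the response to stimulation were also the address of members more often than the 18.2% of all genes and the 23.7% of genes with a promoter DHS, and denser in them than the 20.6 and 37.1 per Mb of those sets. The 14 genes of lymphoid homing held 60 members, 148 per Mb (113 to 191), although only 8 of the 14 had any. The interval treats members as independent and is too narrow where a few genes hold most of them. Most of the 60 lay at Cxcr4, Ccr7 and S1pr1, described above, and Ccr6, a receptor for the chemokine CCL20, had 4 with a highest score of 155. Of 20 genes that respond to activation, 17 (85.0%, 63.96 to 94.8) had a member and the median gene had 3.5, with 94.2 members per Mb (74.8 to 117). Egr3 (highest score 255.64), Cd83 (190), Fos (109) and Nr4a1 (100) led this list. Egr3, Fos and Nr4a1 encode transcription factors that are rapidly induced on stimulation, and CD83 is a surface marker of activated B cells. Of 14 genes of the germinal centre and plasma cell 9 had a member, and the density was 76.9 per Mb (51.9 to 109.8). Mki67, which encodes the proliferation marker Ki-67, came first, with a score of 404.95 that is among the 10 highest of all members, then Xbp1, a transcription factor of secretory cells, with 250, Il21r, a cytokine receptor, with 104 and Irf4 again.

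The 20 p53 targets held 24 members, 55.1 per Mb (35.3 to 81.9), and 10 of the 20 genes (50%, 29.9 to 70.1) had at least 1, while 19 had a promoter DHS. A member was found at 18.2% of all protein-coding genes and at 23.7% of those with a promoter DHS, both below the interval of the list. By density, all protein-coding genes had 20.6 members per Mb, below the interval of the list, and those with a promoter DHS had 37.1, within it. Btg2, an antiproliferative gene, had 8 members. The strongest scored 311 and lay 14373 bp upstream at chr1:135989059-135991081. Pmaip1, which encodes the death protein Noxa, had 5 with a highest score of 128, and Sesn2 and Phlda3 had 1 each with 41.6 and 39.5. Cdkn1a and Mdm2, among the best known targets and singled out here after their values were seen, had no member. The eligible sequence nearest to them was short, 9.6 and 13.8 kb, against 27 kb for Btg2 and 87.9 kb for Pmaip1, so that their lack of a member says little.

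For lists outside the B lineage the share of genes with a member ran from 8.33% to 64.3%. Of 18 T cell genes 8 (44.4%, 24.6 to 66.3) had a member, led by Ctla4 (113), Zap70 (99.6), Cd2 (85.6) and Cd3e (65.0), and only Cd2 of these 4 had a promoter DHS. Ctla4 encodes an inhibitory receptor, Zap70 a kinase of T cell receptor signalling, Cd2 an adhesion molecule and Cd3e a chain of the T cell receptor complex. Of 14 myeloid genes 9 (64.3%, 38.8 to 83.7) had a member, led by Emr1, the macrophage marker F4/80, with 144, then Itgam (48.8), Fcgr1 (28.4) and Ly6g (25.3). Of 12 genes of red cells and megakaryocytes 1 had a member (8.33%, 1.49 to 35.4). Of 18 genes of other tissues 4 had one (22.2%, 9.001 to 45.2), namely Neurog2 with 89.1 and Nkx2-5, Ins2 and Myod1 with 15.96, 14.2 and 8.03. Of 16 housekeeping genes, all with a promoter DHS, 4 (25%, 10.2 to 49.5) had one. Among them were Eef1a1, a factor of translation elongation, with 253, Actb with 78.9 and Ywhaz with 35.6. The share was 18.2% over all protein-coding genes and 23.7% over those with a promoter DHS. The intervals of the T cell and myeloid lists lay above both shares. Those of the housekeeping list, of other tissues and of red cells and megakaryocytes included both. The density was 46.5 members per Mb (29.5 to 69.8) for the T cell list, 67.2 (41.6 to 103) for the myeloid list, 64.5 (35.3 to 108) for the housekeeping list, 18.9 (7.61 to 38.99) for other tissues and 6.02 (0.152 to 33.5) for red cells and megakaryocytes. The first 3 of these were above the 20.6 per Mb of all genes. The interval of the T cell list and that of the housekeeping list included the 37.1 per Mb of genes with a promoter DHS, and that of the myeloid list lay above it. Of the 21 myeloid members 5 lay at Emr1 and 5 at Itgam, and the interval, which treats members as independent, is too narrow. The strongest member at Fcgr1 holds the tRNA gene elements described below.

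**Figure D3:**
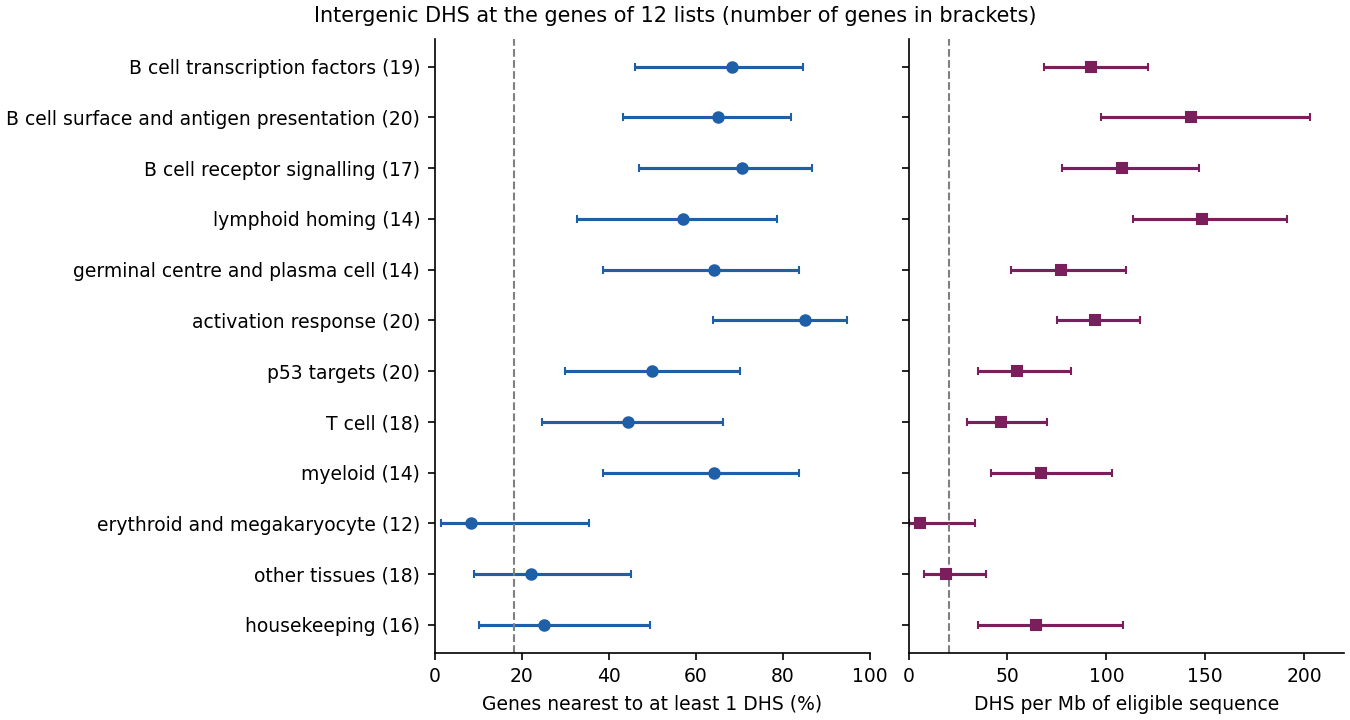
Left, share of the genes of each list that are the nearest protein-coding gene of at least 1 intergenic DHS, with Wilson 95% intervals; right, intergenic DHS per Mb of eligible sequence nearest to the list's genes, with exact Poisson 95% intervals. Dashed lines are all protein-coding genes, 18.2% and 20.6 per Mb, and the intervals of 9 lists, the B cell, p53, T cell and myeloid lists among them, lie to the right of both, whereas those of red cells and megakaryocytes and of other tissues include both.

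The 10 highest-scoring members were all upstream of their nearest TSS, and 8 were at least 1000 bp wide. They lay near Hfe2 (511.77), Irgc1 (491.38), Zfp869 (445.16), Olfr1368 (440.69), Mki67 (404.95), Rnf19b (393.06), Scel (377.65), Ccdc9 (377.38), Eif2a (376.87) and Wisp3 (373.11). None held the CTCF word in its centre, 1 held the PU.1 word (near Rnf19b) and 2 were CpG-rich. Hfe2 encodes hemojuvelin, a regulator of iron balance, Rnf19b a ubiquitin ligase, Olfr1368 an olfactory receptor and Eif2a a factor of translation initiation. Repeated 31-base words made up at most 7.08% of any of them, and over all members the median was 0% and the upper quartile 3.80%, with 40 members above 50%.

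Several strong members held matches to the promoter elements of tRNA genes. The first, 4351 bp wide at chr3:96302808-96307158 and 24125 bp from the TSS of Hfe2, holds 4 copies of a B box word (GTTCGANNC, both strands), 2 of them with an A box 30 to 110 bp away on the 5′ side. The EICE match printed above for this member, at chr3:96304943-96304951, overlaps 1 of these B boxes by all but its first base. The member near Olfr1368, at chr13:21250124-21253830 with the score of 440.69, holds 1 such pair. Over whole members the pair of boxes occurred 61 times, 9.32 per Mb (7.13 to 11.97), against 1.42 per Mb (1.30 to 1.54) of eligible tiles without a DHS, a ratio of 6.56 (4.95 to 8.55). The B box word alone, which is short, had a ratio of 1.31 (1.19 to 1.43). In intergenic DHS beyond 50 kb the pair occurred 0.954 times per Mb (0.197 to 2.79), in intronic DHS 1.21 (0.553 to 2.30) and in promoter DHS 4.25 (3.47 to 5.16). This search was chosen after the sequence of the strongest member had been seen.

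The 47 members with a pair of tRNA boxes (0.576%, 0.433 to 0.765) had a median score of 91.0 (quartiles 31.3 and 184), against 26.6 in the other 8118, and they made up 10 of the 100 highest-scoring members (10%, 5.52 to 17.4). Their median width was 1385 bp, against 635.5 bp in the others. The boxes were searched over whole members, so that a wide member has more room for a pair, and the part of width in the difference of scores was not tested. Of the 47, 14 lay on chromosome 13 within chr13:21250124-23614189, with scores from 13.2 to 441, near Olfr1368, Trim27, Zfp184, Pom121l2, Btn1a1, Btn2a2 and genes of the histone cluster Hist1. Another 4 lay on chromosome 1 near Fcgr3, Fcgr4 and 1700009P17Rik. The GENCODE M1 set used to define gene bodies names tRNA genes of the mitochondrion only, so that a nuclear tRNA gene counts as intergenic under the rule unless it lies in another gene or promoter window.

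Words of 23 kinds were searched in the central 300 bp of the members on both strands and compared with the eligible tiles without a DHS. Each word was also read backwards, which keeps its base composition but not its pairs of bases. Among exact words CTCF had the highest ratio. The CTCF word was found in 482 members (5.90%, 5.41 to 6.44) and in 0.131% of the tiles, a ratio of 44.96 (40.7 to 49.6). The backward word, which contains a CpG and is rarer still, was in 1 member and in 0.00356% of the tiles, a ratio of 3.44 (0.475 to 24.9). The CTCF ratio varied with the spelling of the word and the members taken, and was 5.32 (5.04 to 5.61) with at most 1 mismatch, below that of the exact NRF1 word, and 72.2 (64.3 to 81.0) in members with scores at or above the median. In intergenic DHS beyond 50 kb the share was 3.28% (2.77 to 3.89), in intronic DHS 3.16% (2.84 to 3.52) and in promoter DHS 2.19% (2.001 to 2.39), so that the interval of the members was above those of the other classes. The PU.1 word GAGGAAGT was found in 317 members (3.88%, 3.48 to 4.32) and in 1.93% of the tiles, a ratio of 2.02 (1.81 to 2.25), while the backward word TGAAGGAG had a ratio of 1.01 (0.870 to 1.18). Its share was 4.54% (3.93 to 5.24) beyond 50 kb, 4.40% (4.02 to 4.82) in intronic DHS and 2.96% (2.74 to 3.19) in promoter DHS.

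Other words of B cell factors stood less far above the tiles. The EBF1 word TCCCNNGGG was in 5.45% of members and 2.95% of tiles, a ratio of 1.85 (1.69 to 2.02), and its backward word had 1.38 (1.24 to 1.53). The E-box CAGCTG, bound by E2A, was in 18.3% and 11.1%, a ratio of 1.65 (1.57 to 1.73). Its backward form, which contains a CpG that the word lacks, had a ratio of 1.66 (1.28 to 2.15), so that the word did not stand above it. The second E-box, CAGGTG, had a ratio of 1.32 (1.27 to 1.37), close to the 1.26 (1.18 to 1.33) of its backward word. The RUNX word TGTGGTT had 1.12 (1.04 to 1.199) and the NF-kappaB word GGGANTTTC 1.27 (1.06 to 1.53), with backward words at 1.004 and 0.952. Words of interferon factor sites were close to the tiles, with 1.04 (0.980 to 1.11) for EICE, GGAANNGAA, and 1.04 (0.967 to 1.12) for ISRE, AANNGAAAC. The backward EICE word had 1.15 (1.08 to 1.23) and the backward ISRE word 0.891 (0.832 to 0.954), so that ISRE lay above its backward word and EICE did not. Against windows 5 kb to either side of the members the ratios were 1.38 for EBF1 and 1.354 for its backward word, 1.353 for CAGCTG and 1.37 for its backward form, 1.002 for RUNX, 1.29 for NF-kappaB, 1.05 for EICE and 1.23 for ISRE with 1.01 for its backward word. The excess of EBF1 over its backward word and that of RUNX over the background thus hold against the tiles and not against the nearby windows. The EICE and PU.1 words share the letters GGAA and can overlap.

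Words with a CpG were frequent relative to the tiles and rare relative to promoters. The NRF1 word GCGCANGCG was in 0.723% of members and 0.113% of tiles, a ratio of 6.38 (4.93 to 8.27), but its backward word had 4.53. The ETS word CCGGAAGT had a ratio of 3.43 (2.60 to 4.53), and its backward word, which lacks the CpG, had 1.16. The GC box GGGCGG had 3.12 (2.91 to 3.35) and its backward word 2.87. The promoter DHS held these words in 4.27%, 2.87% and 31.2%, against 0.723%, 0.625% and 8.63% of the members. Below the tiles were the octamer ATGCAAAT, bound by the factors OCT1 and OCT2 of lymphocytes, at 1.95% against 2.50% (ratio 0.780, 0.668 to 0.910), and the YY1 word CAAGATGGC with 0.633 (0.462 to 0.866). The STAT word TTCNNNGAA had 0.846 (0.790 to 0.906), the forkhead word TGTTTAC 0.872 (0.780 to 0.975) and the CCAAT box CCAATCA 0.864 (0.771 to 0.968). Their backward words had 0.942, 0.715 and 0.655 in the same order, so that the forkhead word and the CCAAT box lay above theirs. The backward YY1 word had 0.490, from 1 member. The backward octamer, which contains a CpG, was lower than the octamer at 0.418 (0.209 to 0.836), from 8 members. Windows 5 kb to either side of the members held the octamer in 1.62%, fewer than the members, so that its direction depends on the background. Against these windows the ratio was 1.05 for STAT, so that its direction depends on the background as well. It was 0.918 for forkhead, 0.972 for the CCAAT box and 0.565 for YY1. The GATA word AGATAAG of red cells had 0.842 (0.753 to 0.941) and its backward word 0.606 (0.534 to 0.688). The HNF4 word CAAAGTCCA of liver cells, found in 46 members, had 1.37 (1.03 to 1.83) and its backward word 0.923 (0.601 to 1.42), with intervals that overlapped. Against the windows 5 kb away the HNF4 word had only 1.08 and its backward word 0.850, and the GATA word had 0.920.

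**Figure D4:**
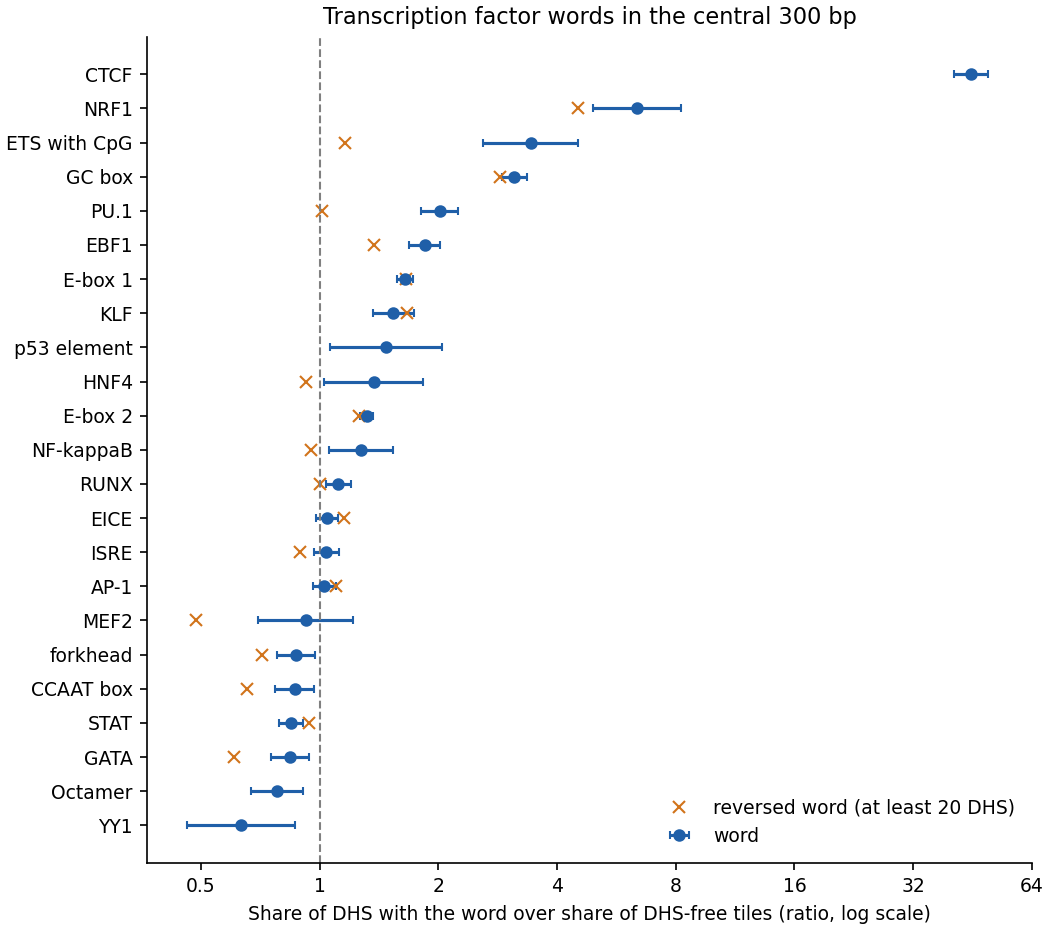
Share of members with each of 23 words in the central 300 bp divided by the share of eligible tiles without a DHS, on a log axis; bars are 95% intervals, crosses are the backward words found in at least 20 members, E-box 1 is CAGCTG and E-box 2 CAGGTG. CTCF lies at 44.96, and PU.1 lies at 2.02 with its backward word at 1.01, whereas the GC box and its backward word lie side by side.

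The p53 response element, searched as a pair of adjacent decamers with at most 2 mismatches, was in 36 members (0.441%, 0.319 to 0.610), in 0.298% of the tiles and in 0.364% of the windows 5 kb away. Against the tiles the ratio was 1.48 (1.06 to 2.05), and for the backward element it was 1.32 (0.593 to 2.96). The share was 0.231% (0.122 to 0.438) in intergenic DHS beyond 50 kb and 0.432% (0.322 to 0.580) in intronic DHS, and these intervals overlapped that of the members. In promoter DHS it was 0.260% (0.2004 to 0.336), and the ratio of members to promoter DHS was 1.70 (1.12 to 2.58).

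The word was searched at the centre of each DHS alone, so that the comparisons of members with and without it move with the width of the DHS. As shown further on, where narrow members had a CTCF word it lay beside them and hardly ever at the centre, and these count as members without it, as do neighbours on both sides of a word in a short gap. The values that follow are therefore a description of members with a word at the centre. For CTCF their median score was 39.0 and their median width 925 bp, against 25.5 and 594 bp in members without it. Another DHS lay less than 10 kb away for 60.8% (56.4 to 65.0) of them, against 79.6% (78.7 to 80.5), and 57.7% (53.2 to 62.0) lay upstream, against 66.4% (65.3 to 67.5). Members with the PU.1 word had a median score of 35.4 and a median width of 989 bp, but 79.8% (75.05 to 83.9) had a DHS less than 10 kb away and 67.2% (61.8 to 72.1) lay upstream, against 78.5% and 65.8% of members without it. From the lowest to the highest score quartile the share with the CTCF word was 1.71%, 3.67%, 9.65% and 8.57%, and that with the PU.1 word 2.99%, 3.33%, 3.43% and 5.78%. The median width over the same quartiles was 408, 472, 782 and 1213 bp, so that score and width cannot be told apart here.

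Where the words lay depended on the width of the DHS. In the 4283 members over 600 bp wide the CTCF word was densest at the centre, with 651 copies per Mb (577 to 733) in the central 100 bp and 72.4 (55.5 to 92.8) in the 100 bp beyond each edge. In the 1911 members of at most 400 bp the order was the opposite. The central 100 bp held 2 copies, 10.5 per Mb (1.27 to 37.8), and the 100 bp beyond the edges held 290 copies, 759 per Mb (674 to 851), so that 290 of the 1911 narrow members (15.2%, 13.6 to 16.9) had a copy just outside. A copy in a short gap between narrow members is counted from each of them, so that these are not all distinct copies and the interval, which treats them as independent, is too narrow. Eligible tiles without a DHS held 4.55 per Mb. The highest bins of 20 bp were 210 bp to one side and 230 bp to the other side of the centre, with 1.57 and 1.49 copies per kb. In the 1971 members of intermediate width the densities were 5.07 per Mb (0.128 to 28.3) at the centre and 505 (437 to 580) beyond the edges.

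The PU.1 word was placed in the same way, but less sharply. In narrow members it had 36.6 copies per Mb (14.7 to 75.5) at the centre and 267 (218 to 324) beyond the edges, against 66.4 in the tiles, and its backward word had 110 (68.0 to 168) at the centre and 47.1 (27.9 to 74.4) beyond the edges, with intervals that overlapped. In members of intermediate width the backward word had 55.8 at the centre and 71.03 beyond the edges, and in wide members 65.4 and 61.9. The PU.1 word itself had in wide members 231 (188 to 281) at the centre and 131 (108 to 157) beyond the edges. The RUNX word was placed likewise in members of intermediate width, with 249 (184 to 329) at the centre and 431 (369 to 501) beyond the edges, and in narrow members it had 277 (208 to 363) and 411 (349 to 480), whose intervals overlapped. The EBF1 word had 225 (163 to 303) at the centre and 196 (154 to 246) beyond the edges in narrow members, but 167 (115 to 235) and 294 (243 to 353) in those of intermediate width. The E-box CAGCTG was nearly flat in narrow members, with 570 (468 to 688) and 607 (531 to 690).

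**Figure D5:**
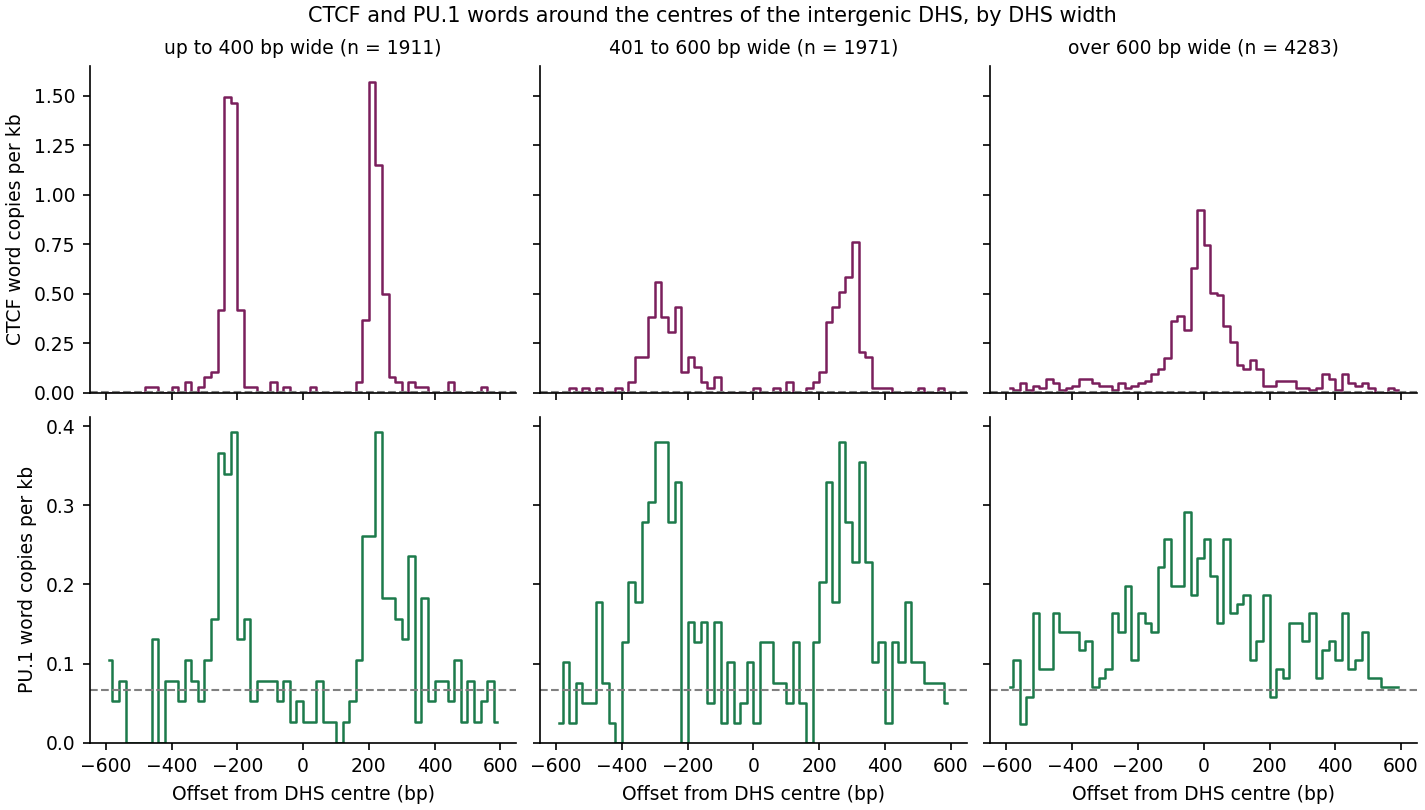
Copies per kb of the CTCF word (top) and the PU.1 word (bottom) in bins of 20 bp against the offset from the DHS centre, for members of at most 400 bp, of over 400 to 600 bp and over 600 bp; dashed lines are eligible tiles without a DHS. In the narrow members the CTCF word peaks near 210 and 230 bp on either side and is almost missing at the centre, whereas in the wide ones it peaks at the centre.

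Of the 290 copies just outside narrow members, counted from each member, 127 (43.8%, 38.2 to 49.5) lay in a gap of under 200 bp to another DHS, 1 lay inside another DHS and 162 (55.9%, 50.1 to 61.5) had no DHS so near on that side. Seen from the gaps, 135 of 1056 gaps of under 200 bp between 2 neighbouring members (12.8%, 10.9 to 14.9) held a CTCF word. Where both members were narrow it was 35 of 144 (24.3%, 18.03 to 31.9). The pair near Rfc4 printed above is such a case, with a DHS at chr16:23135246-23135645 (score 28.82), another at chr16:23135763-23136154 (score 32.79) and the word between them starting at position 23135708. When DHS with gaps of under 200 bp were joined first, which was decided after this placement had been seen, 597 of 7012 regions (8.51%, 7.88 to 9.19) held the CTCF word in the central 300 bp and 339 (4.83%, 4.36 to 5.36) the PU.1 word. How the peak caller set the edges is not given in the sources used here, and its part in this placement was not tested.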

How the data were processed

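The authors mapped the reads of the DNaseI library to mm9, and the notes of the submitters list BWA 0.6.2 and SAMtools. Apoptotic cells were first removed over Ficoll, nuclei were digested at several DNase I concentrations, that which gave the clearest signal over background by qPCR was kept, and short fragments were sequenced. The deposited peak list carries MACS names and 1 score per DHS. The study names a MACS version and cutoff for its ChIP-seq peaks, but not separately for the DNaseI list, and the scale of the score is not given in the sources used here, so the score only ranks DHS, and no depth can be drawn from it. No file of the input library was used.

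DHS were classed from 95414 TSSs of GENCODE M1 on mm9. All eligible 300-bp tiles served as background, and no sites were drawn at random. Intervals are exact Poisson for densities and Wilson for shares, and those of ratios follow from the same counts. Ratios of shares treat windows as independent, and intervals of densities and of their ratios treat DHS as independent. Overlapping windows and neighbouring DHS are not, so that these intervals are too narrow. Words were read from the mm9 sequence, and repeats were judged by 31-base words that recur in it. Python 3.11.15, numpy 2.4.6, scipy 1.17.1, pandas 2.3.3, numba 0.67.0 and matplotlib 3.10.9 were used, and the steps were tested on simulated data.

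Named were the 10 members of highest score, the 10 genes with most members, and up to 4 genes of each list by highest member score, or every such gene in lists with fewer than 6. The members and lists were chosen with earlier results of these data known. The gap between neighbouring members, the joining of DHS at 200 bp and the tRNA words were chosen after seeing the data. Of the listed symbols, Spi1 and Syk found no match. Values of 3 listed genes are not reported here. No sequence of chromosome 18 was printed.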

Additional observations from a re-analysis of the deposited data

Results flagged for a closer look

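Chromosome X lay outside the rule. On it 88 DHS met every other condition, in 29.3 Mb of eligible sequence, a density of 2.999 per Mb (2.41 to 3.70) against 20.6 per Mb on chromosomes 1 to 19. Their median score was 22.8 and their highest 155. It is listed because these DHS took no part in the comparisons above and no file of the input library was used to set a control level beside them. The reason for the lower density was not tested.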

How the results depend on the processing

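Of 26 alternatives over 7 results, 11 left the value within its interval or within 1.5 times the count, and none turned a direction. Restricting the list to scores at or above the median left 3303 members. The ratio of densities at genes with and without a promoter DHS was 4.11 with promoter windows of 1 kb on each side. The CTCF ratio became 60.5 in the central 200 bp, 35.8 against windows 5 kb away, 72.2 for scores at or above the median, 5.32 with at most 1 mismatch and 64.8 with gaps under 200 bp joined. The PU.1 ratio became 2.64 for scores at or above the median, 1.21 with at most 1 mismatch and 2.51 with gaps under 200 bp joined. Joining at 200 bp was chosen after seeing the data. The share of members with another DHS nearby was 49.7% under 2 kb, 98.1% under 50 kb and 68.1% once gaps under 500 bp were joined. For the 3 B cell lists together the share of genes was 82.1% when any protein-coding TSS within 50 kb counted, against 34.4% of all genes, and 50% for scores at or above the median, against 10.1%. Wider limits and looser words hold more by construction, and otherwise the cause was not tested. No paired analysis was possible because there is 1 library with a peak list. Its unknown depth and digest limit which weak sites were called, so that a site without a DHS is not shown to be closed.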
